A study of Homo sapiens with 70 samples.

Results

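The knock-down of HMGA1 in H1299 cells was followed by RNA-seq in 13 of the 70 samples of the series, chosen by their labels: 7 libraries of H1299 cells with the empty retroviral vector (H1299, replicates 1 to 7) and 6 of H1299 cells with a short hairpin RNA against HMGA1 (H1299-shA1, replicates 2 to 7). H1299 is an established human non-small cell lung cancer line. Both groups were transduced with an MSCV retrovirus, selected with puromycin and grown as stable populations in DMEM with fetal calf serum at atmospheric oxygen, so the vector and the selection were common to both. By their labels both carried a vector of microRNA design, which held the hairpin to HMGA1 in H1299-shA1 only. A single hairpin and a single cell line were used, so an effect of HMGA1 loss and an effect of this hairpin on other transcripts cannot be told apart. All genes with enough counts were compared, 14840 in number, and no difference between the groups was used to choose them. Growing IMR90 cells (Grow and Grow-shA1, 16 libraries), diploid lung fibroblasts with the same hairpin or its vector, served as a second line for comparison. Per the methods, IMR90 cells were grown at lower than atmospheric oxygen, unlike H1299. All IMR90 cells also carried an oncogenic RAS fused to the estrogen receptor, which was not induced with tamoxifen in these 2 groups and is not in H1299.

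HMGA1 is a small chromatin protein of the high mobility group A family. It binds the minor groove of AT-rich DNA through short AT-hook motifs, bends DNA and helps transcription factors to assemble, and is therefore described as an architectural factor. HMGA1 is abundant in embryonic tissue, low in most adult tissue and high again in many carcinomas, lung cancer among them, while in senescent fibroblasts it is a component of compacted heterochromatin.

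Total counts were 18512418 to 23088324 in H1299 (median 21727379) and 17747670 to 23649765 in H1299-shA1 (median 20126573). The first principal component of the expressed genes, with 30.5% of the variance, held apart the groups, and the next pair (14.5% and 10.8%) held apart H1299-shA1 replicate 7 and replicate 3 from the rest. The counts of called genes were therefore also made without both, an alternative chosen after seeing the data, and are given where a list moved by over 1.5 times or where the list is described at length. Most markers of other cells had few or no counts. The summed level of 8 immune and endothelial markers was 37.8 to 62.5 CPM in H1299 (counts scaled to the size of the library) and 48.7 to 74.5 CPM in H1299-shA1, with 7 of the 8 at no more than 10 counts in every library and the leukocyte marker PTPRC at 0 in all. The sum was carried by the lysosomal macrophage marker CD68, named after its values were seen, at 37.4 to 62 CPM in H1299 and 48.4 to 74.1 CPM in H1299-shA1 (log2 fold change 0.26, edgeR adjusted p = 0.0866). The 11 fibroblast markers summed to 4.61 to 6.62 CPM and 4.56 to 6.03 CPM, the 9 neuroendocrine and squamous markers to 15.2 to 18.5 CPM and 14.2 to 20.6 CPM, and the 11 markers of the lung epithelial lineage to only 8.98 to 10.9 CPM and 9.7 to 13.7 CPM, with the surfactant gene SFTPC at 0 in all. Of the 13 markers tested, 0 were called by edgeR or DESeq2 and 2 by limma-voom, CD68 among them, and 3 had an unadjusted p under 0.05. With H1299-shA1 replicates 3 and 7 left out, edgeR called CD68 and 1 fibroblast marker higher. Their part in the results was not tested.

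HMGA1 itself fell in every library with the hairpin. In CPM scaled with TMM factors, HMGA1 (ENSG00000137309; hg19, chr6:34204650-34214008, plus strand) stood at 1716, 1823, 1949, 1976, 1915, 1862 and 1973 CPM in H1299 replicates 1 to 7. It stood at 358, 449, 357, 363, 381 and 369 CPM in H1299-shA1 replicates 2 to 7. All 6 knock-down libraries lay far below the lowest vector library, and the mean level kept was 20.1% of that in H1299 (379 ± 35.4 against 1888 ± 94.6 CPM, SD, n = 6 and 7). The log2 fold change was −2.31 ± 0.05 (SE, adjusted p = 5.54e-17, edgeR quasi-likelihood test with Benjamini-Hochberg adjustment over all genes tested, as for every adjusted p here). HMGA1 has processed pseudogenes of nearly the same sequence, and reads that aligned to several places were not counted, so the level of HMGA1 is uncertain. In growing IMR90 the fall was steeper, from a median of 469 CPM in Grow to 35.8 CPM in Grow-shA1 (log2 fold change −3.79), and the difference of the fold changes between the lines was 1.48 ± 0.09 (SE, adjusted p = 1.23e-15, interaction term in edgeR).

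Most other high mobility group genes were not called. HMGA2, the second member of the A family and likewise an oncofetal AT-hook protein, ranged from 1549 to 1714 CPM around a median of 1610 CPM in H1299 and from 1465 to 1714 CPM around a median of 1583 CPM in H1299-shA1. The groups overlapped over nearly their whole range, and the log2 fold change was −0.03 ± 0.04 (SE, edgeR adjusted p = 0.64). Per kilobase of exon, the mean level of HMGA1 was 902 CPM in H1299 and 181 CPM in H1299-shA1, and that of HMGA2 191 CPM and 187 CPM. Of 10 genes of the family, HMGA1 was called lower and HMGN2, a nucleosome-binding member, higher (log2 fold change 0.20 ± 0.07, SE, edgeR adjusted p = 0.0387). The call of HMGN2 was lost in 8 of the 13 fits that leave out 1 library, and without H1299-shA1 replicate 3, 4 of the 10 were called.

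**Figure D1:**
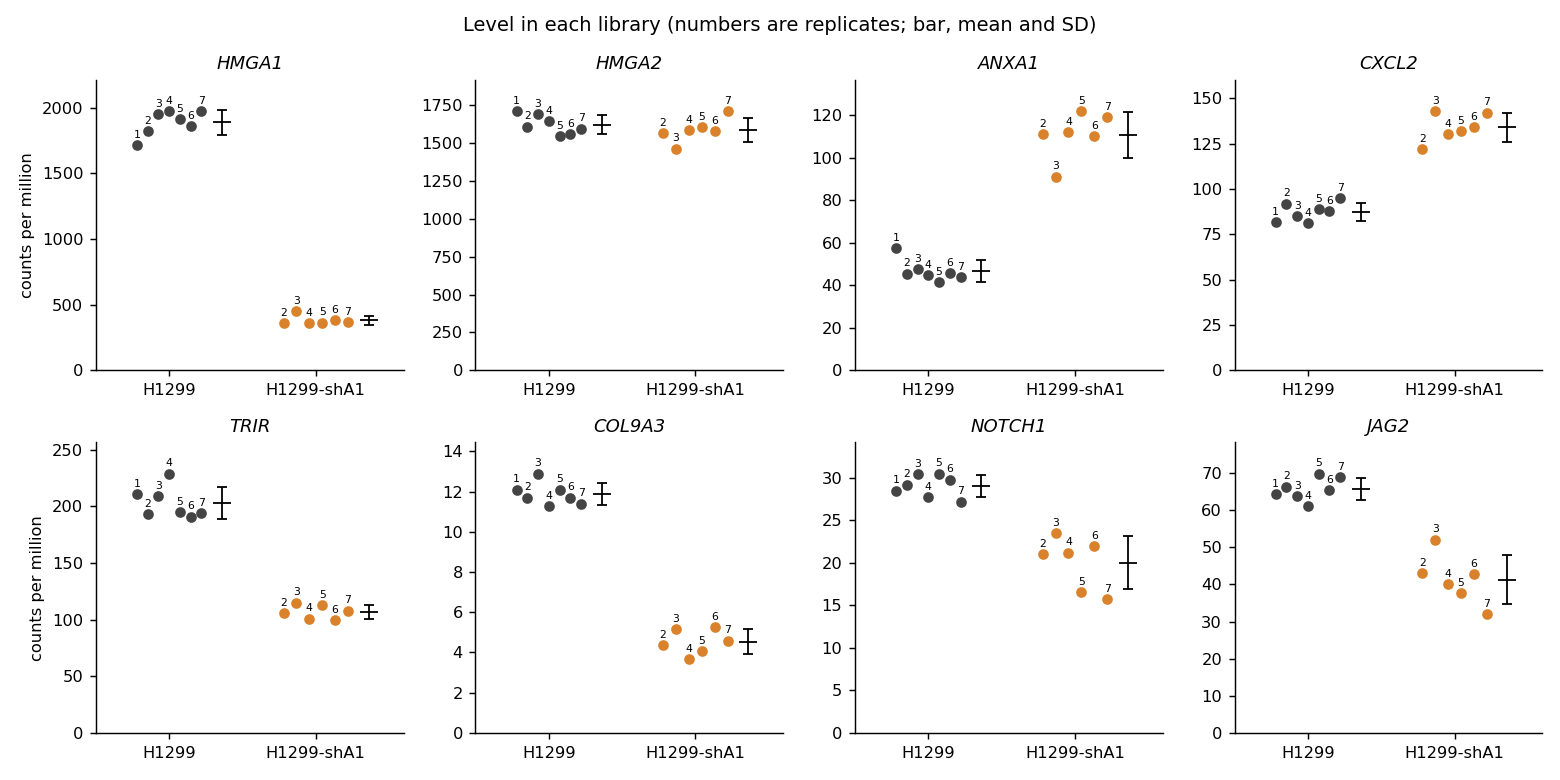
CPM (TMM-scaled, linear axes from 0) of HMGA1, HMGA2, ANXA1, CXCL2, TRIR, COL9A3, NOTCH1 and JAG2 in each of the 7 H1299 and 6 H1299-shA1 libraries. Points are libraries, bars the mean and SD. The groups are separate for all genes shown but HMGA2, whose medians are 1610 and 1583 CPM.

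The response was broad and shallow. Of the 14840 genes tested, 2311 (15.6%) were called at an adjusted p under 0.05, 1283 of them higher with the hairpin (8.65% of genes tested) and 1028 lower (6.93%). The median size of a called log2 fold change was 0.28, and 84.5% of the called genes changed by less than 1.5-fold. With a fold change of at least 1.5 as a second condition, 358 genes (2.41%) were called, 245 higher and 113 lower, and with one of at least 2, 72 genes (0.485%), 55 higher and 17 lower. Larger changes were thus more often rises. The groups did not overlap at all in 741 called genes (4.99%), of which 381 were higher and 360 lower. Without H1299-shA1 replicates 3 and 7, 3605 genes were called, 1833 higher and 1772 lower.

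**Figure D2:**
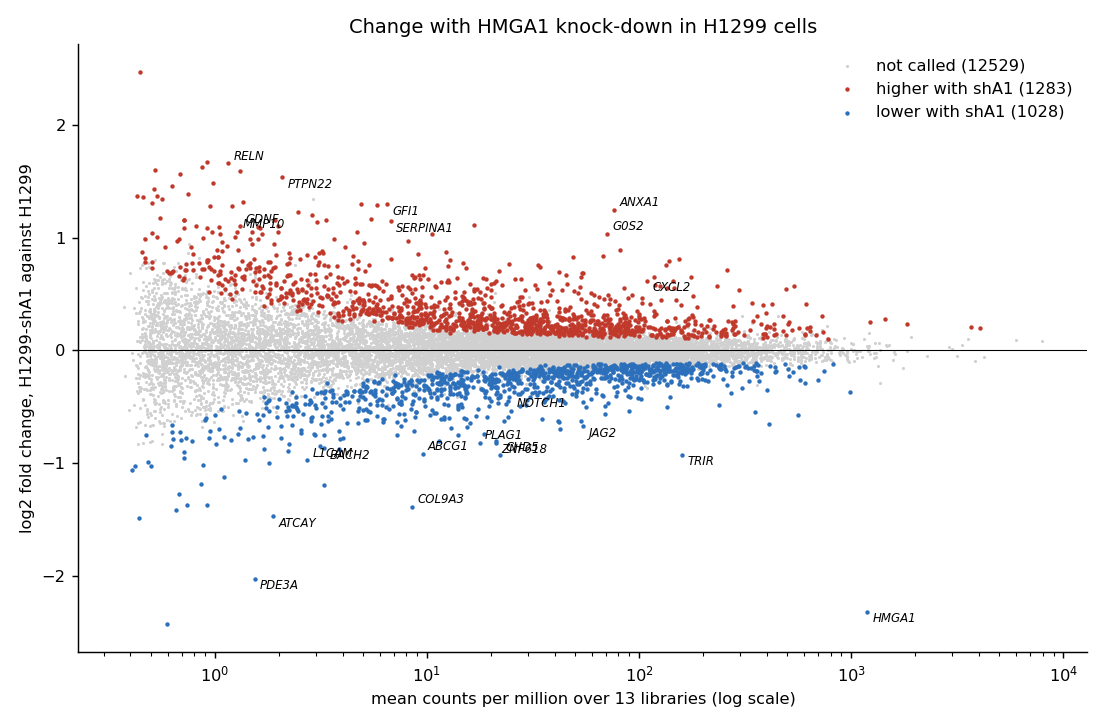
Log2 fold change of H1299-shA1 against H1299 (vertical) against mean CPM over the 13 libraries (horizontal, log axis), 1 point per gene for 14840 genes. Coloured points are the 1283 genes called higher and the 1028 called lower. HMGA1, at −2.31, is the largest fall among genes with a mean of at least 1 CPM, and 84.5% of the coloured genes changed by less than 1.5-fold.

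After HMGA1, the gene with the smallest p was TRIR, which encodes an RNA exonuclease that associates with telomerase RNA (hg19, chr19:12841454-12845485). TRIR ranged from 191 to 229 CPM around a median of 195 CPM in H1299 and from 99.4 to 115 CPM around a median of 107 CPM in H1299-shA1. The groups lay well apart, and the log2 fold change was −0.92 ± 0.05 (SE, edgeR adjusted p = 1.75e-10). TRIR also fell in growing IMR90, with a log2 fold change of −1.45 there. ANXA1, the calcium-dependent phospholipid-binding protein annexin A1 that dampens inflammation (hg19, chr9:75766673-75785309), ranged from 41.6 to 57.6 CPM (median 45.4 CPM) in H1299 and from 91.1 to 122 CPM (median 111 CPM) in H1299-shA1. Every knock-down library exceeded every vector library, with a log2 fold change of 1.25 ± 0.07 (SE, edgeR adjusted p = 3.59e-10). COL9A3, which encodes a chain of the cartilage collagen type IX (hg19, chr20:61447596-61472511), ranged from 11.3 to 12.9 CPM (median 11.7 CPM) and from 3.68 to 5.27 CPM (median 4.48 CPM). The fall was again without overlap, with a log2 fold change of −1.39 ± 0.08 (SE, edgeR adjusted p = 4.02e-10). The zinc finger gene ZNF618 (hg19, chr9:116638562-116818871) fell from 25.1 to 27.8 CPM to 13.7 to 16.5 CPM, by 0.82 on the log2 scale (SE 0.06, edgeR adjusted p = 1.18e-08), whereas in growing IMR90 it rose by 0.25.

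Among genes with a mean of at least 1 CPM and no overlap of the groups, the largest rise was that of RELN (hg19, chr7:103112231-103629963), which encodes the secreted matrix glycoprotein reelin. RELN ranged from 0.226 to 0.785 CPM (median 0.645 CPM) in H1299 and from 1.34 to 2.19 CPM (median 1.89 CPM) in H1299-shA1. All knock-down libraries were higher, from a low level, with a log2 fold change of 1.66 ± 0.20 (SE, edgeR adjusted p = 1.12e-05). Also among the 15 largest rises, the glial growth factor GDNF rose by 1.10 on the log2 scale, the protease inhibitor SERPINA1 (alpha-1 antitrypsin) by 1.15 and the stromelysin MMP10 by 1.05. GFI1, a zinc finger repressor best known in blood cells, went from 2.85 to 4.53 CPM up to 8.35 to 10.5 CPM (log2 fold change 1.29 ± 0.10, SE, edgeR adjusted p = 3.41e-08). PTPN22, a phosphatase of lymphocyte receptor signalling, rose by 1.54, and G0S2, an inhibitor of triglyceride lipolysis, by 1.03 from 34.8 to 61.5 CPM up to 80.5 to 119 CPM. GFI1 and PTPN22 are known from leukocytes, and the leukocyte marker PTPRC was at 0 in all 13 libraries.

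By the same rule, the largest fall after HMGA1 was that of PDE3A, a phosphodiesterase that hydrolyses cyclic AMP (hg19, chr12:20522179-20837315). PDE3A ranged from 0.915 to 3.26 CPM (median 2.64 CPM) in H1299 and from 0.424 to 0.876 CPM (median 0.551 CPM) in H1299-shA1, with vector replicate 1 the lowest of its group. The log2 fold change was −2.02 ± 0.27 (SE, edgeR adjusted p = 3.76e-05). Also among the 15 largest falls, ATCAY, which encodes the neuronal protein caytaxin, fell by 1.47 on the log2 scale, the cell adhesion molecule L1CAM by 0.97 and the chromatin remodeller gene CHD5 by 0.93. CHD5 was separate between the groups, at 24.7 to 33.4 CPM in H1299 and 12 to 17.1 CPM in H1299-shA1. The set also held transcription factor genes, among them the zinc finger gene PLAG1, at 19.3 to 24.3 CPM against 10.9 to 13.7 CPM (log2 fold change −0.82 ± 0.07, SE, edgeR adjusted p = 2.68e-07), and the basic leucine zipper repressor gene BACH2, at 3.41 to 4.56 CPM against 1.91 to 2.73 CPM (log2 fold change −0.87). ABCG1, a transporter that exports cholesterol, fell by 0.91.

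The first question asked of the pathways was that of inflammatory genes. Chemokines of the CXC family such as CXCL1 and CXCL2 draw neutrophils, and together with cytokines such as IL-6 they are standard targets of NF-kB, the transcription factor that carries signals from inflammatory receptors to the nucleus. In this line most of these genes were silent or nearly so. Of 31 listed cytokines and chemokines, 12 had enough counts to be tested. IL6 had 0 counts in every H1299 library, which allows up to 3 counts by counting error, and at most 2 counts in a library of H1299-shA1. CXCL8 had at most 11 and 10 counts, so a change in these was not detectable at this depth. Of the 12 tested, 4 were called higher and 0 lower by edgeR (33.3% called, against 15.6% of all genes). The median log2 fold change of the 12 was 0.40, against 0.005 over all genes. At an unadjusted p under 0.05, 8 were higher and 2 lower, and DESeq2 called 3 higher and 0 lower and limma-voom 6 and 1. With a trend with AT content removed from each library, an alternative chosen after seeing the data, edgeR called 4 higher and 2 lower.

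CXCL2 (hg19, chr4:74962752-74965010) was the abundant member. It ranged from 81.3 to 94.8 CPM (median 87.6 CPM) in H1299 and from 122 to 143 CPM (median 133 CPM) in H1299-shA1. The groups did not overlap, and the log2 fold change was 0.62 ± 0.05 (SE, edgeR adjusted p = 3.41e-08). CXCL1, which shares most of its sequence with CXCL2, ranged from 6.34 to 7.72 CPM (median 6.8 CPM) and from 6.13 to 9.84 CPM (median 8.14 CPM). One knock-down library lay below all vector libraries and 5 lay above all of them, and the log2 fold change of 0.24 ± 0.09 was not called (SE, edgeR adjusted p = 0.0773). Reads that fit both genes were not counted, so the levels of this pair are uncertain. CSF1, the growth factor of macrophages, ranged from 1.65 to 3.27 CPM in H1299 and between 2.27 and 5.94 CPM in H1299-shA1, and its log2 fold change was 0.78 ± 0.19 (SE, edgeR adjusted p = 0.00823). IL18, singled out after its values were seen because its mean was under 1 CPM, ranged from 0.0913 to 0.485 CPM and from 0.613 to 1.02 CPM, without overlap. With 2 to 11 counts in an H1299 library, IL18 passed the filter on low counts through the knock-down group, where it was higher, so its call supports nothing, and without it 3 of the list were called higher. The epithelial chemokine CCL28 was called at 0.25 (edgeR adjusted p = 0.0497), a call lost in 11 of the 13 fits that leave out 1 library.

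The promoters of CXCL2 and CXCL1 are shown because the first was the called chemokine of highest level and the second its closest paralog, which was not called. Both are 300-base windows from RefSeq (GRCh38.p14), from 250 bases before to 50 bases after the start of the gene, on the strand of the gene: chr4:74099146-74099445, minus strand, for CXCL2, and chr4:73869143-73869442, plus strand, for CXCL1. The second was added after the values were seen.
CXCL2: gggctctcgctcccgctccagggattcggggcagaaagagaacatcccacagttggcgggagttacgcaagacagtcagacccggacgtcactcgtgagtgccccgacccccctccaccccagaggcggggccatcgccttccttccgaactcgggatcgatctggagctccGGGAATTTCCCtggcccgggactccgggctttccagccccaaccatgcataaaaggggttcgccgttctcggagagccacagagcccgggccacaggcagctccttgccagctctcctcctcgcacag
CXCL1: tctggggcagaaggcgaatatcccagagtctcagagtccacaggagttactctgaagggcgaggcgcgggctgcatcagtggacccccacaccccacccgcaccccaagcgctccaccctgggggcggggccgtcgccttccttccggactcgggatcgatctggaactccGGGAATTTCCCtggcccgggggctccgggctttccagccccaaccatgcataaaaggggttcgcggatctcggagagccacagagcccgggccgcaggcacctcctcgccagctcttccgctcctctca
Capitals mark GGGAATTTCCC, which holds the NF-kB consensus of 10 letters on both strands in overlapping frames and begins 78 bases before the start of CXCL2 and 79 bases before that of CXCL1. The longest run of letters that the windows share is 42 bases. The consensus occurs in 3956 of 35116 promoter windows of this length (11.3%, both strands). Neither window holds the AP-1 motif TGANTCA, which occurs in 2707 of the windows (7.71%). The 2 windows of CCL28 hold neither motif. A match is a description of the letters and not of binding.

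The NF-kB genes themselves had no common direction. Of 27 subunits, regulators and feedback targets tested, 4 were called higher and 3 lower (25.9%, against 15.6% of all genes), with a median of 0.01. These 7 calls became 3 without H1299-shA1 replicate 2, 4 or 5 or H1299 replicate 5, and 4 without H1299 replicate 2, 3 or 7. TRAF1, a receptor adaptor, ranged from 23.9 to 53.4 CPM (median 28.8 CPM) in H1299 and from 26.6 to 73.9 CPM (median 53.1 CPM) in H1299-shA1. The groups overlapped widely, the log2 fold change was 0.70 ± 0.21 (SE, edgeR adjusted p = 0.0258), and the call was lost in 7 of the 13 fits that leave out 1 library. BCL3, a nuclear partner of NF-kB, was lower at −0.32 ± 0.06, and so was the TNF receptor TNFRSF1B at −0.38, whose call was lost without H1299-shA1 replicate 5 (log2 fold change −0.31). The inhibitor NFKBIE was higher at 0.28, a call lost in 8 of the 13 fits. Named after their values were seen, the other called members were the non-canonical kinase MAP3K14 (0.16), the ubiquitin ligase BIRC2 (0.26) and the dendritic cell marker CD83 (−0.25), with the calls of the kinase and the ligase lost in 7 and 5 of those fits.

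Several Notch genes were lower. Notch receptors on one cell are cut upon contact with ligands of the Jagged and Delta families on a neighbour, and the freed fragment joins RBPJ at target genes such as those of the HES and HEY families. Of 28 genes tested, 9 were called lower and 1 higher, against 6.93% and 8.65% of all genes, with a median log2 fold change of −0.12. Without H1299-shA1 replicates 3 and 7, 11 were lower and 1 higher. Among ligands, JAG2 (hg19, chr14:105607318-105635161) ranged from 61.2 to 69.9 CPM (median 65.5 CPM) in H1299 and from 32 to 52.1 CPM (median 41.4 CPM) in H1299-shA1. The groups did not overlap, with a log2 fold change of −0.67 ± 0.07 (SE, edgeR adjusted p = 7.22e-06). JAG1 was lower by a smaller amount, at 49 to 63 CPM against 37.4 to 52.2 CPM (−0.38 ± 0.07, SE, edgeR adjusted p = 0.0011). Among receptors, NOTCH1 (hg19, chr9:139388896-139440314) ranged from 27.2 to 30.5 CPM (median 29.2 CPM) and from 15.7 to 23.5 CPM (median 21.1 CPM). All 6 knock-down libraries lay below the vector libraries, with a log2 fold change of −0.53 ± 0.08 (SE, edgeR adjusted p = 0.000105). NOTCH3 ranged from 34.7 to 64.8 CPM (median 50.4 CPM) and from 22.7 to 46.8 CPM (median 30.8 CPM), with overlapping groups and a log2 fold change of −0.63 ± 0.16 (SE, edgeR adjusted p = 0.0102).

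Members that act after the receptor were mixed. HES4 was lower at −0.61, a call lost without H1299-shA1 replicate 2, 4 or 5, and the ubiquitin ligase gene DTX4 at −0.58. The best-known direct targets, HES1 at −0.16 (edgeR adjusted p = 0.217) and HEY1 at 0.18 (edgeR adjusted p = 0.324), were not called. MGP, the matrix Gla protein that inhibits calcification, was close to the limit of detection, from 0.523 to 1.78 CPM in H1299 and from 0.112 to 0.551 CPM in H1299-shA1. Its log2 fold change was −1.42 ± 0.32 (SE, edgeR adjusted p = 0.00513), with some overlap of the groups. MGP passed the filter on low counts through H1299, where it was higher, and without it 8 Notch genes were called lower. The remaining called members were named after their values were seen. The feedback gene NRARP was lower at −0.39, RBPJ at −0.13 with its call lost in 4 of the 13 fits that leave out 1 library, and the coactivator gene MAML2 was higher at 0.38.

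**Figure D3:**
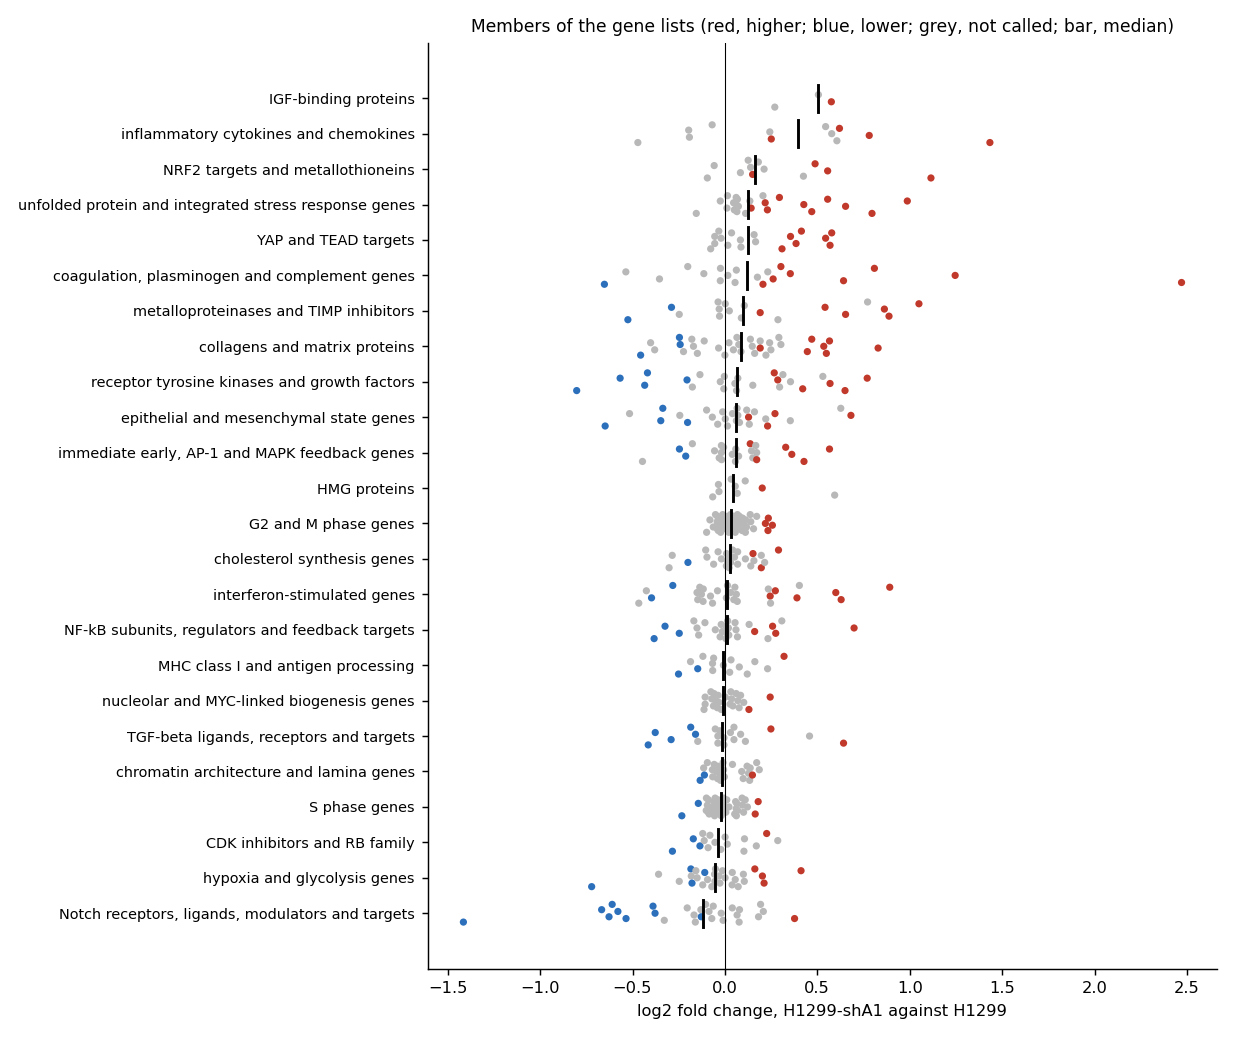
Log2 fold change of H1299-shA1 against H1299 (horizontal) of the tested members of 24 gene lists (rows), without the marker lists. Points are genes, coloured where called at an adjusted p under 0.05, and the bar marks the median of the list. HMGA1 is left off. Medians lie between −0.12 (Notch genes) and 0.51 (IGF-binding proteins, 3 genes), against 0.005 over all genes.

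The fixed lists held 567 tested genes, of which 144 were called (25.4%, against 15.6% of all genes), 93 higher and 51 lower. The lists were written with earlier results of these data known, so this share says nothing about genes at large. Secreted proteases and the plasminogen system were often higher. Of 18 matrix metalloproteinases and their TIMP inhibitors, 6 were higher and 2 lower (44.4% called, median 0.10). Of 20 genes of coagulation, the plasminogen system and complement, 8 were higher and 1 lower (45% called, median 0.12). PLAU, the urokinase that activates plasminogen, ranged from 86.3 to 174 CPM (median 107 CPM) in H1299 and from 164 to 235 CPM (median 198 CPM) in H1299-shA1. Only the highest vector library, replicate 1, reached into the knock-down range, and the log2 fold change was 0.81 ± 0.13 (SE, edgeR adjusted p = 0.000207). The urokinase receptor gene PLAUR rose with it by 0.21. Among collagenases, MMP1 ranged from 41.8 to 103 CPM (median 52.1 CPM) and from 73.1 to 142 CPM (median 107 CPM), a log2 fold change of 0.89 ± 0.18 (SE, edgeR adjusted p = 0.00248) with overlap through replicate 1 of the vector group. MMP2, a gelatinase, was separate at 1.78 to 2.77 CPM against 3.23 to 4.96 CPM (0.86 ± 0.13), and MMP14, the membrane-bound enzyme that activates it, was at 114 to 194 CPM against 162 to 270 CPM (0.65 ± 0.12). The inhibitor TIMP1 was higher by 0.19. THBD, the thrombin receptor thrombomodulin, named after its values were seen because its point lies farthest to the right in the plot of the lists, had 0 to 7 counts in a library of H1299 and 15 to 18 in one of H1299-shA1. It passed the filter through the knock-down group alone, so it supports nothing, and without it 7 genes of that list were higher.

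Of 33 collagens and matrix proteins, 7 were higher and 3 lower (30.3% called, against 15.6% of all genes, median 0.09). Without H1299-shA1 replicates 3 and 7 the counts were 10 and 5. LAMB3, the beta chain of laminin-332, ranged from 29.3 to 42.6 CPM (median 37 CPM) and from 36.1 to 59.9 CPM (median 53.8 CPM), a rise with overlap (0.54 ± 0.09, SE, edgeR adjusted p = 0.000618). Of 27 epithelial and mesenchymal state genes, 4 were higher and 4 lower (29.6% called, median 0.06). The counts were 8 and 6 of 28 without that pair of libraries. Keratin 8 and keratin 18, which pair in the filaments of simple epithelia, both fell. KRT8 ranged from 410 to 611 CPM (median 460 CPM) and from 304 to 333 CPM (median 314 CPM), without overlap (−0.65 ± 0.07, SE, edgeR adjusted p = 6.9e-06), and KRT18 fell by 0.35 with overlap. VIM, the filament protein of mesenchymal cells, rose from 1633 to 1758 CPM to 1895 to 2186 CPM, by 0.23 (SE 0.04, edgeR adjusted p = 0.000394). The epithelial cadherin gene CDH1 had at most 9 counts in a library of H1299 and 6 in one of H1299-shA1 and was not tested.

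The next lists were those of stress responses. In the integrated stress response, the factor ATF4 raises genes of amino acid supply and redox balance. Of 24 genes of the unfolded protein and integrated stress responses, 10 were higher and 0 lower by edgeR (median 0.12, against 0.005). The share called was 41.7%, against 15.6% of all genes (8.65% higher and 6.93% lower). At an unadjusted p under 0.05, 11 were higher and 1 lower, DESeq2 called 10 and 0 and limma-voom 14 and 1, and without H1299-shA1 replicates 3 and 7 edgeR called 14 and 1. ATF4 itself ranged from 172 to 189 CPM in H1299 and from 195 to 227 CPM in H1299-shA1, a small rise without overlap (0.23 ± 0.04, SE, edgeR adjusted p = 0.000924). ASNS, the asparagine synthetase, ranged from 87.7 to 132 CPM (median 98.6 CPM) and from 117 to 227 CPM (median 188 CPM), a log2 fold change of 0.80 ± 0.14 (SE, edgeR adjusted p = 0.00044). PHGDH, which opens serine synthesis, was higher by 0.56 and CHAC1, which degrades glutathione, by 0.99. Of 12 NRF2 targets and metallothioneins, 4 were higher and 0 lower by edgeR (33.3% called, median 0.17). The counts were 8 and 1 at an unadjusted p under 0.05, 4 and 1 by DESeq2 and 8 and 1 by limma-voom. Without H1299-shA1 replicates 3 and 7, 8 of 14 were higher and 1 lower, and without replicate 3 alone 7 were called. SLC7A11, the cystine transporter, was the largest of these, at 7.74 to 15.8 CPM (median 9.17 CPM) against 12.4 to 34.5 CPM (median 24.2 CPM), with a log2 fold change of 1.11 ± 0.21 (SE, edgeR adjusted p = 0.00139). HMOX1 (0.49) and the metallothionein MT2A (0.56) were also called.

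YAP and TEAD targets are genes of growth and adhesion that respond to cell spreading. Among 18 tested, 7 were higher and 0 lower by edgeR (median 0.12), a share of 38.9% against 15.6% of all genes. The counts were 7 and 0 at an unadjusted p under 0.05, 7 and 0 by DESeq2, 9 and 0 by limma-voom, and 8 and 0 without H1299-shA1 replicates 3 and 7. CCN1, a secreted matricellular protein, ranged from 361 to 477 CPM (median 385 CPM) and from 521 to 655 CPM (median 594 CPM), without overlap (0.55 ± 0.07, SE, edgeR adjusted p = 2.5e-05). The receptor kinase gene AXL was higher by 0.57 and NT5E, the surface enzyme CD73, by 0.41. CCN2, a key member of the list, overlapped between the groups, at 84 to 109 CPM in H1299 and 77.2 to 117 CPM in H1299-shA1. ANKRD1, another key member, had too few counts to be tested. Of 24 receptor tyrosine kinases and growth factors, 6 were higher and 5 lower (45.8% called, median 0.07). TGFA, a ligand of the epidermal growth factor receptor (hg19, chr2:70674412-70781325), ranged from 14.7 to 20 CPM (median 19.1 CPM) and from 29.5 to 34.3 CPM (median 29.9 CPM), with groups far apart and a log2 fold change of 0.77 ± 0.07 (SE, edgeR adjusted p = 3.39e-07). ERBB3, a receptor of the same family, moved the other way, from 10.3 to 16.8 CPM down to 5.61 to 11 CPM (−0.80 ± 0.14). Of 20 TGF-beta ligands, receptors and targets, 5 were lower and 2 higher (35% called). The ligand TGFB2 (−0.38) and the latent binding proteins LTBP1 (−0.41) and LTBP3 (−0.29) were among those lower.

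Among cell cycle genes, the counts moved with single libraries. Of 43 S phase genes, 2 were higher and 2 lower (median −0.02), a share of 9.3% called, among them the ribonucleotide reductase gene RRM2 (0.18) and the replication inhibitor geminin, GMNN (−0.23). Without H1299-shA1 replicate 3, 7 were called, without H1299-shA1 replicate 4 or 5 or H1299 replicate 2, 3 or 7 there were 2, and without H1299-shA1 replicates 3 and 7, 5 were higher and 4 lower. The counts were 2 and 7 with a trend with AT content removed from each library and 6 and 4 by limma-voom. Of 55 genes of G2 and M phase, 4 were higher and 0 lower by edgeR (median 0.03), a share of 7.27% against 15.6% of all genes. Without H1299-shA1 replicate 3 alone, 11 were called (20%). The counts were 10 and 1 at an unadjusted p under 0.05, 4 and 0 by DESeq2, 8 and 1 by limma-voom and 8 and 1 without H1299-shA1 replicates 3 and 7. CDC20, which activates the anaphase-promoting complex, was the clearest of these, at 326 to 369 CPM against 391 to 419 CPM (0.23 ± 0.04). Of 16 genes in the list of CDK inhibitors and the RB family, 1 was higher, CDKN2C by 0.23, and 3 lower, a share of 25%. The lower ones were the inhibitor gene CDKN2D, the RB family gene RBL2 and CCND2 (−0.28). CCND2 encodes a D-type cyclin, which activates CDKs, and is neither an inhibitor nor of the RB family. Without H1299-shA1 replicate 7, 9 were called, and without replicates 3 and 7, 4 were higher and 6 lower, with 4 and 7 by limma-voom. CDKN1A, which encodes p21, had a log2 fold change of 0.29 ± 0.10 (SE, edgeR adjusted p = 0.0695), CDKN2A, which encodes p16 and was named after its values were seen, one of −0.05 ± 0.06 (SE, edgeR adjusted p = 0.622), and RB1 one of 0.01 ± 0.04 (SE, edgeR adjusted p = 0.886). None of these 3 was called. Of 24 nucleolar and MYC-linked genes (8.33% called), 2 were higher, MYC by 0.24 and WDR12 by 0.13. The call of WDR12 was lost in 11 of the 13 fits that leave out 1 library. Of those 11, 10 had 1 call in this list. By edgeR, DESeq2 or limma-voom 0 were lower, with 2 lower at an unadjusted p under 0.05. Of 27 genes of chromatin architecture and the lamina (11.1% called), 1 was higher, the methyltransferase gene EZH2 by 0.15. Lower were 2, the cohesin genes SMC3 at −0.13 and SMC1A at −0.11. The calls of EZH2, SMC3 and SMC1A were lost in 8, 9 and 6 of the 13 fits. This list had 7 calls without H1299-shA1 replicate 7, 5 without replicate 3, 1 without replicate 2 or 5, and 0 by edgeR without H1299-shA1 replicate 4 or H1299 replicate 2, 3 or 5.

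The remaining lists were divided. Of 29 interferon-stimulated genes, 6 were higher and 2 lower (27.6% called, against 15.6% of all genes, median 0.01). The RNA sensor OAS3 led, at 18.2 to 23.2 CPM against 24.4 to 34.6 CPM (0.63 ± 0.08), while ISG15 was lower at −0.28. Without H1299-shA1 replicates 3 and 7, 5 were higher and 6 lower, and without replicate 4 alone 5 were called. Of 15 genes of MHC class I (20% called), 1 was higher, B2M by 0.32, and 2 lower, TAP2 at −0.15 and HLA-F at −0.25. The calls of the last pair were lost in 6 and 10 of the 13 fits that leave out 1 library. Without H1299-shA1 replicate 3, 5 were called. Of 24 immediate early, AP-1 and MAPK feedback genes, 6 were higher and 2 lower (33.3% called, median 0.06), among them FOSL2, higher by 0.57. Without H1299 replicate 3 or 7, 5 were called. Of 29 hypoxia and glycolysis genes, 4 were higher and 4 lower (27.6% called). The 8 calls became 2 without H1299-shA1 replicate 4 or 5 or H1299 replicate 2, 3 without H1299-shA1 replicate 2 or H1299 replicate 3, 5 or 7, and 5 without H1299-shA1 replicate 6, while without H1299-shA1 replicates 3 and 7, 5 were higher and 8 lower. PKM, the pyruvate kinase, was the abundant one, at 3288 to 3639 CPM against 3725 to 4171 CPM (0.21 ± 0.04). Of 26 genes of cholesterol synthesis, 3 were higher and 1 lower (15.4% called, against 15.6% of all genes). The 4 calls became 0 by edgeR without H1299-shA1 replicate 2, 1 without H1299 replicate 5 and 2 without H1299-shA1 replicate 4 or 7 or H1299 replicate 1, 2, 3, 4 or 6. Leaving out H1299-shA1 replicates 3 and 7 gave 2 higher and 4 lower, and limma-voom called 3 and 6. Of 3 IGF-binding proteins (33.3% called), IGFBP2 was called higher by 0.58. Called were 3 without H1299-shA1 replicate 3 and 2 without H1299-shA1 replicate 4 or 7 or H1299 replicate 1 or 4.

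Libraries of one group differed in a way that touched many called genes. H1299 replicate 1 was the highest vector library in 38.3% of the genes called higher, against 21.1% of all genes, and the lowest in 30.6% of the genes called lower, against 16% of all genes. Within the knock-down group, replicates 3 and 7 were often the nearest to the controls. Replicate 7 was the lowest of its group in 35.4% and replicate 3 in 30.2% of the genes called higher, against 25.7% and 25.5% of all genes. In the genes called lower, replicate 3 was the highest of its group in 39.9%, against 27.3% of all genes, and replicate 7 in 27.6%, against 28.1%. SLC7A11, singled out after its values were seen, shows the pattern. In H1299 replicates 1 to 7 it stood at 15.8, 9.12, 9.07, 12, 9.17, 12.7 and 7.74 CPM, and in H1299-shA1 replicates 2 to 7 at 34.5, 14.4, 30.4, 31, 18.1 and 12.4 CPM. Replicates 2, 4 and 5 of the knock-down were high together and replicates 3, 6 and 7 low together. ASNS and MMP1 followed the same order of libraries, in that replicates 3, 6 and 7 lay below 2, 4 and 5 for both genes, and NOTCH3 ran the other way, at 25.2, 22.9 and 22.7 CPM in replicates 2, 4 and 5 and at 46.8, 36.4 and 36.8 CPM in replicates 3, 6 and 7. CXCL2 ran the way of NOTCH3, at 122, 130 and 132 CPM in replicates 2, 4 and 5. It was at 143, 134 and 142 CPM in replicates 3, 6 and 7. HMGA1 did so as well, at 358, 357 and 363 CPM against 449, 381 and 369 CPM. Replicate 3 stood apart for HMGA1, and the other 5 lay within 357 to 381 CPM. TGFA did not follow the split, since replicate 3 (29.5 CPM) was the lowest and replicates 6 and 7 the highest. The part of this spread in the results was not tested. Without H1299-shA1 replicates 3 and 7, 2143 of the 2311 called genes were called again, all in the same direction. That fit used the remaining libraries of the same comparison, so a turn of direction was unlikely.

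**Figure D4:**
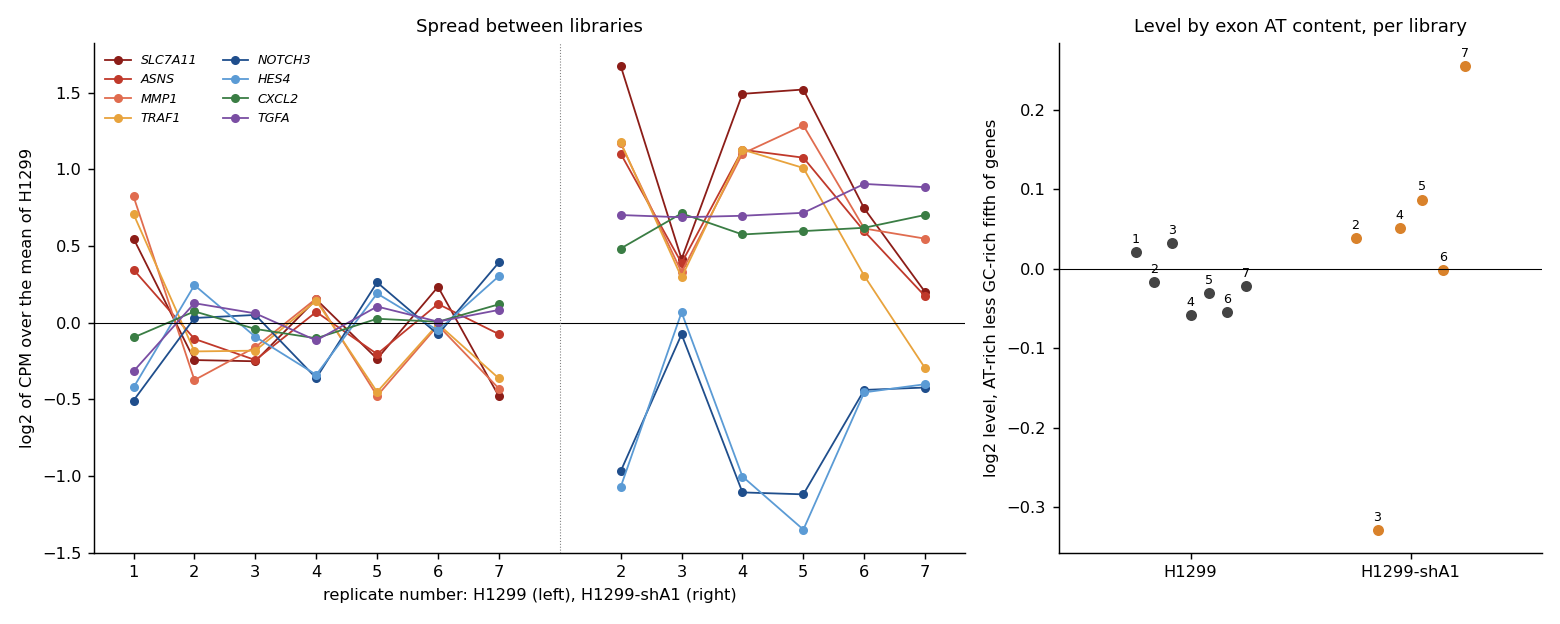
Left, log2 CPM relative to the mean of H1299 (vertical) of SLC7A11, ASNS, MMP1, TRAF1, NOTCH3, HES4, CXCL2 and TGFA in each library (horizontal, labelled by group and replicate number). Lines join the values of 1 gene and replicates have no order. Right, the trend of log2 CPM with the AT content of exons in each library, as its value in the top class of 5 less that in the bottom class. H1299-shA1 replicate 3 (−0.33) and replicate 7 (0.26) lie outside the range of the other 11, −0.06 to 0.09.

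Because HMGA1 binds AT-rich DNA, genes were also divided by the AT content of the 200 kb around their start into 5 classes of 2968 genes each. From the lowest to the highest class, the median log2 fold change went from −0.03 through 0.00, 0.00 and 0.02 to 0.03, the share called higher from 4.85% to 12.1% and the share called lower from 10.5% to 5.66%. The medians rose with AT content in each of 3 classes of gene span as well. Among 3 classes of mean CPM, the median went from −0.030 to 0.083 between the lowest and the highest of 3 AT classes in the genes of lowest level, but only from −0.013 to −0.003 in those of highest level. In growing IMR90 the median was −0.003 in the lowest class and 0.000 in the highest, with the share called higher going from 10.1% to 16.1% and the share called lower from 13.1% to 18.8%. The AT content moved with single libraries as well. Taken library by library against the mean of all, the highest class less the lowest was −0.06 to 0.015 on the log2 scale in H1299 but −0.25 in H1299-shA1 replicate 3 and 0.22 in replicate 7, with 0.015 to 0.094 in the other 4. The spread among knock-down libraries (SD 0.15) was larger than the difference between the highest and the lowest class in the comparison, 0.055. That difference was 0.11 without replicate 3, 0.01 without replicate 7 and 0.08 without both, and 0.03 once a trend with the AT content of exons was removed from each library, an alternative chosen after seeing the data. By chromosome, 11.9% of the genes of chromosome 19 were called lower and 2.73% higher (median AT content 48.2%). Chromosome 18 had the largest share called higher, 19.2% of 229 genes, with 2.18% lower (58.3%). On chromosome 2, 12.7% were higher and 4.32% lower (57.4%). Chromosome 3, with an AT content of 57.5%, went the other way, with 8.81% lower and 5.63% higher.

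The comparison with growing IMR90 asked how much of the response the fibroblasts shared. In Grow-shA1 against Grow, 3905 of 13072 genes were called (29.9%). The comparisons share no library but were counted in separate tables, and cell line, oxygen level in culture and table cannot be told apart. Of 797 genes called in both lines, HMGA1 set aside, 526 (66%) changed in the same direction, 282 higher and 244 lower, while 176 were higher in H1299 and lower in Grow-shA1 and 95 the reverse. Across the 1923 genes called in H1299 and tested in both, Pearson r of the fold changes was 0.29, as a description over genes that are not independent. The 797 genes made up 41.4% of the H1299 calls tested in growing IMR90 and 22.8% of the Grow calls tested in H1299. The interaction term between hairpin and cell line was called for 2454 of 15830 genes (15.5%), 1425 with a fold change more positive in H1299 and 1029 with one more negative.

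**Figure D5:**
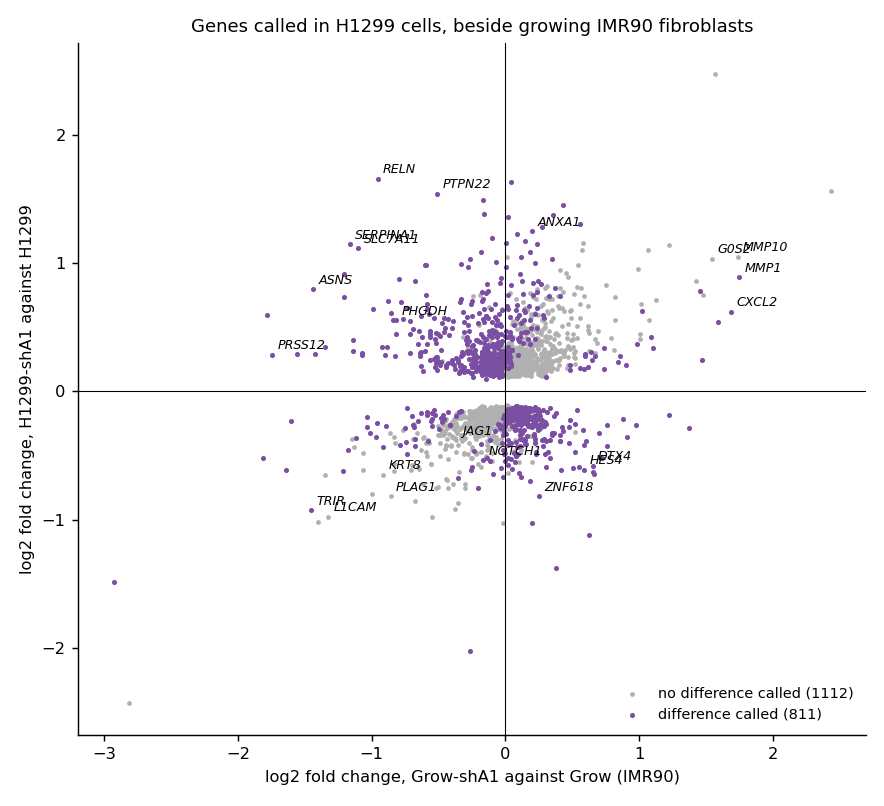
Log2 fold change with the hairpin in H1299 (vertical) against that in growing IMR90 (horizontal) for the 1923 genes called in H1299 and tested in both lines, HMGA1 left out. Purple marks the 811 genes whose difference between the lines was called, grey the other 1112. The cloud leans along the diagonal (r = 0.29), with called differences on every side of the origin.

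Several of the largest differences were in genes that rose in H1299 and fell in growing IMR90. ASNS rose by 0.80 on the log2 scale in H1299 and fell by 1.44 in growing IMR90 (from a median of 55.9 CPM to 20.6 CPM), a difference of 2.24 ± 0.16 (SE, edgeR adjusted p = 8.47e-13). SLC7A11 likewise rose by 1.11 and fell by 1.10, a difference of 2.22 ± 0.21 (SE, edgeR adjusted p = 7.92e-10). Of 25 stress response genes tested in growing IMR90, 3 were higher and 15 lower, against 10 and 0 of 24 in H1299. Over all genes, 29.9% were called in growing IMR90 and 15.6% in H1299. Among genes with a mean of at least 1 CPM in each line, RELN had the largest positive difference, 2.61 ± 0.23 (SE, edgeR adjusted p = 1.04e-10), as it rose in H1299 and fell in growing IMR90 from a median of 19.4 CPM to 9.68 CPM. The guidance receptor gene SEMA6A and the protease gene PRSS12 fell by 2.15 and 1.75 in growing IMR90, while their changes in H1299 were 0.08 (edgeR adjusted p = 0.241) and 0.29. At the other end, the kinase gene PRKG2, the retinoic acid hydroxylase gene CYP26B1, SYT7, SORBS2 and LYPD3 rose by 1.64 to 1.95 in growing IMR90 and were not called in H1299, with differences of −2.31 to −1.86.

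Of the inflammatory genes, CXCL2 rose in both, by 0.62 in H1299 and by 1.69 in growing IMR90 from a much lower median of 1.69 CPM to 6.74 CPM, a difference of −1.08 ± 0.30 (SE, edgeR adjusted p = 0.00995). CXCL1, not called in H1299, rose by 1.37 in growing IMR90, a difference of −1.12 ± 0.28 (SE, edgeR adjusted p = 0.00451). Of 23 cytokines and chemokines tested there, 14 were higher and 3 lower. NOTCH1 was lower in H1299 and not called in growing IMR90 (−0.17, edgeR adjusted p = 0.0719), with a difference of −0.36 ± 0.11 (SE, edgeR adjusted p = 0.0206), and of 22 Notch genes tested there 6 were higher and 4 lower. JAG2 and MGP had too few counts in growing IMR90 to be tested. Of 43 S phase genes 27 were higher and 1 lower in growing IMR90, and of 30 hypoxia and glycolysis genes 1 was higher and 19 lower. Over all genes, 29.9% were called in growing IMR90. The counts by list were not tested between the lines.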

How the data were processed

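RNA-seq was compared between 7 H1299 and 6 H1299-shA1 libraries, grouped by their labels, with 8 Grow and 8 Grow-shA1 libraries of IMR90 for comparison. Per the methods and the table header, the authors selected poly(A) RNA, aligned reads to hg19 with STAR, counted single reads over the exons of GENCODE19 genes with featureCounts 1.5.2 without regard to strand, left out reads that aligned to several places or genes, and deposited raw counts. Overlapping and antisense genes are therefore uncertain. Which libraries were made with which of the stranded kits or instruments is not given in the sources used here. Columns not used in the tables analysed: 0. The table of another IMR90 knock-down experiment was not used, and some genes of the lists and rules are not reported here.

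Symbols were found for 42662 of 44503 identifiers (95.9%). The test was edgeR's quasi-likelihood F test (version 4.0.16, R 4.3.3) after TMM scaling and filterByExpr at a minimum count of 10. A gene was called below 0.05 after Benjamini-Hochberg adjustment, and the SE is the size of the log2 fold change divided by the square root of F. The labels number the samples as separate replicates, and p-values measure the spread between these samples only. The difference between the lines was the interaction term of 1 fit. On simulated counts, 91.9% of 200 changed genes were recovered and 7.14% of calls were false in the H1299 design (14736 genes). For the interaction (15266 genes) the shares were 83.1% and 5.81%. The planted changes were all of at least 1.5-fold, whereas 84.5% of the genes called in H1299 changed by less. Genes were drawn independently, without shifts of many genes together in 1 library. The shares were therefore not measured for smaller changes or for such shifts. CPM use TMM factors over the H1299 table, or over the IMR90 table.

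Named genes were HMGA1, the 15 largest rises and 15 largest falls at a mean of at least 1 CPM without overlap of the groups, 6 genes that the study names for H1299, the key members and the 4 largest called members of each list, the 5 smallest p-values and the 6 largest differences each way. Of 688 genes in 28 lists, 681 were matched. Members, lists and tests were chosen with earlier results of these data known, and lists are described by counts and medians without a test. Promoters come from RefSeq (GRCh38.p14) and AT content from the hg19 sequence. Alternatives were DESeq2 1.42.0, limma-voom (limma 3.58.1), other scalings, filters and thresholds, a replicate block, all groups in 1 fit and each library left out in turn. Leaving out H1299-shA1 replicates 3 and 7 together and removing an AT trend were added after seeing the data.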

Additional observations from a re-analysis of the deposited data

Results flagged for a closer look

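By Dixon's 95% criterion, chance sets 1 library far from the rest in about 1 of 20 groups. Among 210 tests of genes named above, each on 1 gene in 1 group, 16 (7.62%) met it. H1299 replicate 1 was the highest vector library in 7 of them: ANXA1 (57.6 CPM), TRAF1 (53.4 CPM), MMP1 (103 CPM), CDKN1A (127 CPM), FOSL2 (57.6 CPM), PLAU (174 CPM) and HMOX1 (43.7 CPM). MGP was highest in H1299 replicate 6 (1.78 CPM). H1299-shA1 replicate 3 accounted for 4, as the highest of its group for HMGA1 (449 CPM) and the lowest for RB1 (128 CPM), BIRC2 (110 CPM) and MAML2 (8.69 CPM). H1299-shA1 replicate 7 was the lowest for OAS3 (24.4 CPM) and TAP2 (58.3 CPM), replicate 4 the highest for SEMA6A (40.8 CPM) and replicate 5 the highest for CD68 (74.1 CPM).

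The change with the hairpin differed between H1299 and growing IMR90, by the interaction term in edgeR, for 15 of the 18 genes listed for this test, against 15.5% of the 15830 genes tested. Most of the 18 were named as the largest differences, so their count says nothing about genes at large. The log2 fold change in H1299 less that in growing IMR90 was 2.61 for RELN, 2.24 for SEMA6A, 2.24 for ASNS, 2.22 for SLC7A11, 2.04 for PRSS12 and 1.48 for HMGA1. It was −2.31 for PRKG2, −2.24 for CYP26B1, −1.98 for SYT7, −1.92 for SORBS2, −1.86 for LYPD3, −1.75 for PDE3A, −1.12 for CXCL1, −1.08 for CXCL2 and −0.36 for NOTCH1.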

How the results depend on the processing

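HMGA1 was called lower under every alternative run. The 2311 called genes became 4367 with limma-voom, 1475 with all groups in 1 fit, 1097 at an adjusted p under 0.01, 358 and 72 once changes under 1.5-fold and under 2-fold were set aside, and 3605 without H1299-shA1 replicates 3 and 7 together. Leaving out 1 library gave 1683 to 3122, and DESeq2 gave 2521. The 144 called genes of the lists became 249 with limma-voom, 80 at an adjusted p under 0.01, 32 and 7 with the fold limits, and 105 to 186 with 1 library left out. The 2454 differences between the lines became 1354 at an adjusted p under 0.01, with 2120 to 2610 on leaving out 1 library. The share of the same direction in both lines, 66%, ranged from 63.7% to 70.1% with 1 library left out. The causes of these shifts were not tested. Genes called under an alternative as well as in the comparison reported had the same direction in both. These fits share most of their libraries, so this does not measure how well a direction would repeat. With the replicate number as a block on replicates 2 to 7, 2425 genes were called, 1279 higher and 1146 lower, against 2349 without the block on the same libraries. The labels do not say what a replicate number marks, so whether the numbers pair the libraries is not known. The correlations of same-numbered libraries ran from −0.15 to 0.29, and 1 of the 6 knock-down libraries correlated best with its own number. H1299-shA1 replicates 2, 4 and 5 each correlated best with H1299 replicate 1. For named genes, 2567 of 2746 values under alternatives kept their direction and side of the threshold, 159 lost the call, 20 gained one and 0 turned. Genes that the filter on low counts removed were not tested, and 28 of the genes called higher and 18 of those called lower had a median under 10 counts in the group where they were lower, so they passed through the other group.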
